A study of Rattus norvegicus with 11 samples.

Results

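The Kv channel interacting proteins are encoded by Kcnip1, Kcnip2, Kcnip3 and Kcnip4, and Kcnip3 encodes the protein also known as DREAM or calsenilin. The 4 genes were found by their symbols among the 42172 genes of each count file, and the family was chosen by the level of Kcnip3 in these libraries, which was already known to be higher in neurons expressing H1.4 CFT. All 4 passed the low-count filter, as did 17294 genes of the series. RNA was sequenced from polyadenylated transcripts of primary neurons from the hippocampus of Sprague Dawley rats, cultured to day 7 in vitro. The H1.4 CFT neurons (4 libraries, CFT 1 to 4) expressed the linker histone H1.4 with a frameshifted C-terminal tail. The WT H1.4 neurons (4 libraries, WT 1 to 4) expressed wild-type H1.4 from outside, and the GFP neurons (3 libraries, GFP 2 to 4) expressed green fluorescent protein as the control. The vector, the promoter and the species of the constructs are not given in the sources used here, and no label says that the cells' own H1.4 gene was altered, so both H1.4 groups are models of added protein. That gene, H1f4, gave 5 to 8 counts in H1.4 CFT, 1 to 5 in WT H1.4 and 0 to 2 in GFP libraries, and as the construct's sequence is not known this does not check the labels.

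Kv channel interacting proteins are small calcium-binding proteins of the neuronal calcium sensor family. They attach to the cytoplasmic N-terminus of Kv4 potassium channel subunits, bring the channels to the surface and shape their gating, and Kv4 channels carry the fast A-type current that dampens the excitability of hippocampal dendrites. DREAM has a further role in the nucleus, where it binds a short downstream regulatory element in DNA while calcium is low and represses transcription.

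Reads in genes numbered 12070941 to 18846492 per library, and levels are given in CPM (counts divided by TMM-scaled library sizes), not corrected for transcript length. The groups are called biological replicates by the submitters, and nothing says which cultures shared animals, so p-values measure the spread between these libraries. The neuronal marker list was present in full, with sums of 3251 to 3844 CPM in H1.4 CFT, 4501 to 4684 CPM in WT H1.4 and 4627 to 4750 CPM in GFP. Of its 9 genes, 7 fell in H1.4 CFT relative to WT H1.4 and 8 relative to GFP, where 19.2% and 16.2% of all tested genes fell. Not every neuronal marker was lower than in WT H1.4. Snap25 averaged 317 CPM in H1.4 CFT, 301 CPM in WT H1.4 and 331 CPM in GFP, and Slc17a7 339, 334 and 407 CPM. In bulk RNA, fewer cells of a type and less RNA per cell cannot be told apart. Astrocyte markers summed to 1878 to 2027 CPM in H1.4 CFT, 1379 to 1480 CPM in WT H1.4 and 1803 to 1973 CPM in GFP. Oligodendrocyte lineage markers summed to 427 to 491 CPM in H1.4 CFT, 436 to 518 CPM in WT H1.4 and 428 to 524 CPM in GFP. Vascular and fibroblast markers summed to 57.2 to 69.5 CPM in H1.4 CFT, 53.0 to 67.9 CPM in WT H1.4 and 73.5 to 80.4 CPM in GFP. The 7 microglial markers summed to 7.95 to 11.97 CPM in H1.4 CFT. Their sums were 10.5 to 13.7 CPM in WT H1.4 and 11.2 to 12.9 CPM in GFP. Of these markers, Cx3cr1, Aif1, C1qa, C1qb and Tmem119 stayed under 1 CPM in every library. P2ry12 averaged 7.56 CPM in H1.4 CFT, 11.4 CPM in WT H1.4 and 10.7 CPM in GFP, and Csf1r 1.13, 0.433 and 0.332 CPM. Of 9 astrocyte markers 6 rose in H1.4 CFT relative to WT H1.4, 2 rose in H1.4 CFT relative to GFP and 6 fell in WT H1.4 relative to GFP. The shares of all tested genes for these directions were 16.7%, 13.3% and 0.509%. Of the smaller lists, 0 of 8 tested oligodendrocyte lineage markers, 1 of 2 tested microglial markers and 3 of 7 tested vascular and fibroblast markers rose in H1.4 CFT relative to WT H1.4, while 0, 1 and 1 fell. Over all tested genes 16.7% rose and 19.2% fell in that comparison. Any part of these lists in the Kcnip values was not tested.

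The 4 genes followed 4 different courses over the groups. Kcnip3 was the member chosen for a high level in H1.4 CFT, Kcnip2 was lowest in H1.4 CFT, Kcnip1 was lower in both H1.4 groups than in GFP, and Kcnip4 passed in no comparison of the fit to all libraries. Leaving Kcnip3 aside where the choice used it, 1 of 3 members fell in H1.4 CFT relative to WT H1.4 and 0 rose, where 35.9% of all tested genes passed, 19.2% lower and 16.7% higher. In H1.4 CFT against GFP 2 of 3 fell and 0 rose, where 29.5% of genes passed, 16.2% lower and 13.3% higher. For WT H1.4 against GFP 1 of all 4 members fell and 0 rose, where 0.943% of genes passed, 0.509% lower and 0.434% higher (163 genes, and 248 with the replicate number as a block). A call means an adjusted p under 0.05 in edgeR's quasi-likelihood test with Benjamini-Hochberg adjustment over all genes tested. Separation of the groups was common among all genes. Groups did not overlap for 34.6% of tested genes in H1.4 CFT relative to WT H1.4 (18.5% lower, 16.1% higher), 35.5% in H1.4 CFT against GFP (18.5% lower, 17.0% higher) and 12.2% in WT H1.4 against GFP (5.94% lower, 6.29% higher).

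**Figure D1:**
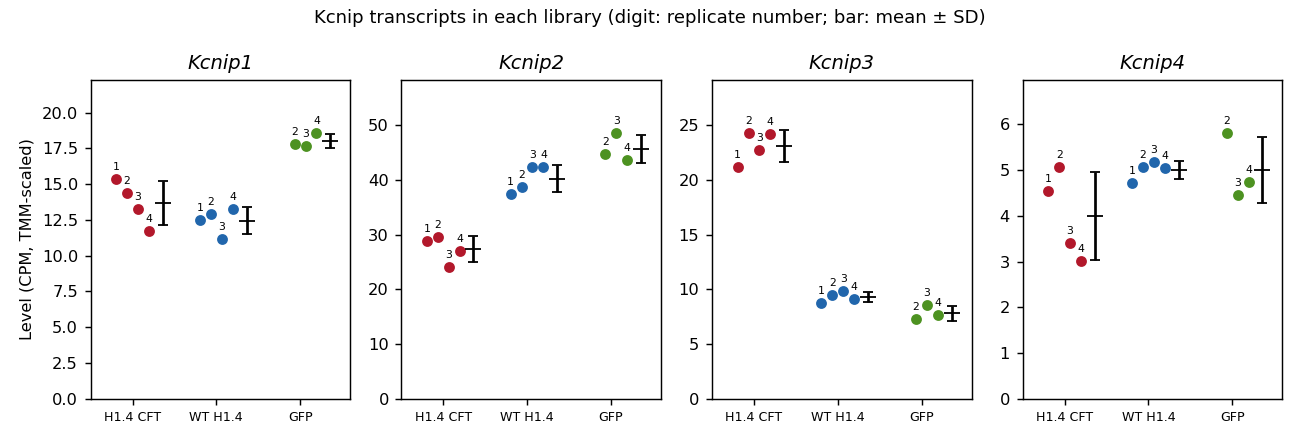
Level of each Kcnip transcript (CPM with TMM scaling) in every library, by group; digits are replicate numbers and the black bars are mean ± SD. Kcnip3 stands at 21.2 to 24.3 CPM in H1.4 CFT and at 7.27 to 9.81 CPM in all other libraries, and Kcnip2 is lowest in H1.4 CFT at 24.1 to 29.5 CPM.

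Kcnip3, the calcium-dependent repressor DREAM, had 21.2, 24.3, 22.7 and 24.2 CPM in CFT 1 to 4, against 8.78, 9.48, 9.81 and 9.16 CPM in WT 1 to 4. GFP 2 to 4 had 7.27, 8.56 and 7.63 CPM. The lowest value in H1.4 CFT exceeded the highest of the other groups by more than the whole range within any group. The means were 23.1 ± 1.46 CPM in H1.4 CFT (SD, n = 4), 9.31 ± 0.443 CPM in WT H1.4 (n = 4) and 7.82 ± 0.668 CPM in GFP (n = 3). These levels correspond to a 2.48-fold higher level in H1.4 CFT relative to WT H1.4 (log2 fold change 1.31) and a 2.96-fold higher level relative to GFP (log2 fold change 1.57). They chose the gene and are given as a description, without a test. Ordered by size, these differences were number 306 of 17294 against WT H1.4 and number 186 against GFP, so that 1.76% and 1.07% of tested genes had a larger rise. The size was alike within number pairs of the libraries, 1.32 among libraries numbered 1 and 2 and 1.30 among those numbered 3 and 4 against WT H1.4, and 1.64 and 1.54 against GFP.

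The comparison that the choice did not use was WT H1.4 against GFP. Here Kcnip3 had a log2 fold change of 0.25 (SE 0.11, 95% interval 0.029 to 0.48, adjusted p = 0.354) and did not pass. All 4 WT H1.4 libraries lay above all 3 GFP libraries, a separation that 6.29% of tested genes showed in that direction. The nearest values of the groups were 8.78 CPM in WT 1 and 8.56 CPM in GFP 3. Counts of 131 to 178 in WT H1.4 and 100 to 127 in GFP gave a counting error of 8.06% and 9.59% per library on average, above the observed variation of 4.76% and 8.54% between libraries.

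Kcnip2 encodes the Kv4 partner best known from the heart, where it is needed for the transient outward current, and it is also made in hippocampal pyramidal neurons. It had 28.9, 29.5, 24.1 and 27.1 CPM in CFT 1 to 4, against 37.4, 38.8, 42.5 and 42.3 CPM in WT 1 to 4. GFP 2 to 4 had 44.8, 48.6 and 43.7 CPM. The H1.4 CFT libraries lay below all others, and the WT H1.4 libraries below the GFP libraries with a smaller gap. Kcnip2 fell 1.47-fold to 27.4 ± 2.43 CPM in H1.4 CFT, against 40.2 ± 2.53 CPM in WT H1.4 (SD, n = 4 each, log2 fold change -0.56, SE 0.071, adjusted p = 7.46e-06). It fell 1.67-fold in H1.4 CFT against GFP, which stood at 45.7 ± 2.58 CPM (n = 3, log2 fold change -0.74, SE 0.076, adjusted p = 1.14e-06). With WT H1.4 set against GFP the log2 fold change of -0.18 (SE 0.075, 95% interval -0.34 to -0.024, adjusted p = 0.339) did not pass. Against WT H1.4 the log2 fold change was -0.38 among libraries numbered 1 and 2, where GFP has 1 library. It was -0.73 among those numbered 3 and 4, where it passed (adjusted p = 2.26e-13). That fit estimates the spread from few libraries per group, so its smaller p is not stronger evidence than the fit to all libraries. The neuronal marker list moved in the same direction in H1.4 CFT, with the sums given above, and its part in the fall was not tested. A list of 4 cardiac muscle genes, included because Kcnip2 is abundant in heart, summed to 21.2 to 24.7 CPM in H1.4 CFT, 13.0 to 16.9 CPM in WT H1.4 and 14.5 to 16.3 CPM in GFP. Of these 4 genes 2, Myh7 and Nppa, were higher in H1.4 CFT in both comparisons and 2 did not pass in either. Over all tested genes 16.7% rose against WT H1.4 and 13.3% against GFP. Any part of these genes in the Kcnip2 values was not tested.

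The bases ahead of the annotated starts of Kcnip3 and Kcnip2, the members that were high and low in H1.4 CFT, are shown because the protein made from Kcnip3 binds DNA at sites with a GTCA core. They are the 250 bases before the start given by RefSeq on the GRCr8 build, both on the minus strand, chr3:135195411-135195660 for Kcnip3 and chr1:254613899-254614148 for Kcnip2. Capitals mark each GTCA or its reverse complement TGAC.
Kcnip3: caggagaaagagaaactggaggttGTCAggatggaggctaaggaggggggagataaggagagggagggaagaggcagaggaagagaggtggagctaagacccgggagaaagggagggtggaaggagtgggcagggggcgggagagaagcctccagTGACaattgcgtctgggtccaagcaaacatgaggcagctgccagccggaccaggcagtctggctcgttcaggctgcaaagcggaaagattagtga
Kcnip2: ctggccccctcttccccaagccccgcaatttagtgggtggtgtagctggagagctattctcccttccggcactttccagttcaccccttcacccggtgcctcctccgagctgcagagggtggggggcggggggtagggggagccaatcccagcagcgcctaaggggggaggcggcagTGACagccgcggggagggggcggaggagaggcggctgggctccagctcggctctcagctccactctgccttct
Kcnip3 held 2 such matches and Kcnip2 held 1, and the windows of Kcnip1, which has 2 listed starts, held 1 and 2. The promoter table had windows for Kcnip1, Kcnip2 and Kcnip3 and was matched by symbol. Among 33465 windows of the same length 80.8% held at least 1 match and 51.5% at least 2, so a match of these letters is common. GC content was 58.4% for Kcnip3 and 68.0% for Kcnip2, against a median of 51.2% over all windows, and CpG pairs numbered 6 and 12 against a median of 5. The matches are letters only, since binding was not measured, and the counts do not tell which of the annotated starts was used. Bases after the start were not searched, so downstream elements are not covered.

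Kcnip1 encodes a Kv4 partner made by many inhibitory interneurons as well as other neurons. It had 15.4, 14.4, 13.3 and 11.7 CPM in CFT 1 to 4 and 12.5, 12.9, 11.1 and 13.3 CPM in WT 1 to 4, against 17.8, 17.6 and 18.6 CPM in GFP 2 to 4. The H1.4 groups overlapped each other and both lay wholly below GFP. Kcnip1 fell 1.32-fold to 13.7 ± 1.56 CPM in H1.4 CFT (n = 4), against 18.0 ± 0.505 CPM in GFP (n = 3, log2 fold change -0.40, SE 0.10, adjusted p = 0.00599). It fell 1.45-fold to 12.5 ± 0.933 CPM in WT H1.4 (n = 4), with a log2 fold change of -0.53 against GFP (SE 0.10, adjusted p = 0.0126). For H1.4 CFT relative to WT H1.4 the log2 fold change was 0.14 (SE 0.097, 95% interval -0.065 to 0.34, adjusted p = 0.289) and did not pass. The call in WT H1.4 against GFP was lost without single libraries, with an adjusted p of 0.0509 without WT 3, 0.0613 without GFP 3 and 0.122 without GFP 4, while the log2 fold change stayed between -0.57 and -0.48. Among libraries numbered 1 and 2, where GFP has 1 library, neither fall passed (log2 fold changes of -0.27 and -0.49, with adjusted p of 0.207 and 0.0824).

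Interneuron markers fell in part beside Kcnip1 in WT H1.4 against GFP, and their counts were different in the other comparisons. The 12 listed genes summed to 332 to 397 CPM in H1.4 CFT and 281 to 311 CPM in WT H1.4, against 346 to 400 CPM in GFP. Of 10 tested markers 5 fell and 0 rose in WT H1.4 against GFP, among them Gad1 and Gad2, the enzymes of GABA synthesis (log2 fold changes of -0.48 and -0.72, with adjusted p of 0.0395 and 0.0158). Over all tested genes 0.509% fell and 0.434% rose there. In H1.4 CFT 2 fell and 1 rose against GFP, near the 16.2% and 13.3% of all tested genes. Relative to WT H1.4 6 rose and 0 fell, where 16.7% of all tested genes rose and 19.2% fell. Gad1 averaged 39.4 CPM in H1.4 CFT, 29.5 CPM in WT H1.4 and 41.0 CPM in GFP. Vip and Pvalb, which mark mature interneuron classes, stayed under 1 CPM in every library. The part of these cells in the Kcnip1 values was not tested. On the GRCr8 build the span of Kcnip1 overlaps Kcnmb1, a potassium channel subunit gene, and 4 further loci. The strand setting of the counting is not given, so reads of overlapping genes cannot be told apart.

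Kcnip4 encodes the member also known as the calsenilin-like protein, with isoforms that remove fast inactivation from Kv4 channels. It had the fewest reads, 53 to 94 per library. Its levels were 4.54, 5.07, 3.41 and 3.01 CPM in CFT 1 to 4 and 4.71, 5.06, 5.18 and 5.04 CPM in WT 1 to 4, against 5.81, 4.45 and 4.75 CPM in GFP 2 to 4. CFT 3 and CFT 4 lay below every other library, while CFT 1 and CFT 2 fell within the range of GFP. The log2 fold change was -0.32 in H1.4 CFT relative to WT H1.4 (SE 0.17, 95% interval -0.67 to 0.029, adjusted p = 0.144) and -0.32 against GFP (SE 0.18, 95% interval -0.71 to 0.060, adjusted p = 0.198), and neither passed. With WT H1.4 set against GFP it was -0.0034 (SE 0.18, 95% interval -0.38 to 0.38, adjusted p = 0.997). Against WT H1.4 the value was -0.022 among libraries numbered 1 and 2 and -0.68 among those numbered 3 and 4. It passed among those numbered 3 and 4 (adjusted p = 0.00892), a fit with few libraries per group to estimate the spread. It also passed without CFT 2 (-0.46, adjusted p = 0.0461). Variation between H1.4 CFT libraries was 24.0%, with a counting error of 11.9% per library, while WT H1.4 libraries varied by 4.02%, less than counting error alone. Kcnip4 overlaps 4 loci on GRCr8, none of them a protein-coding gene.

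**Figure D2:**
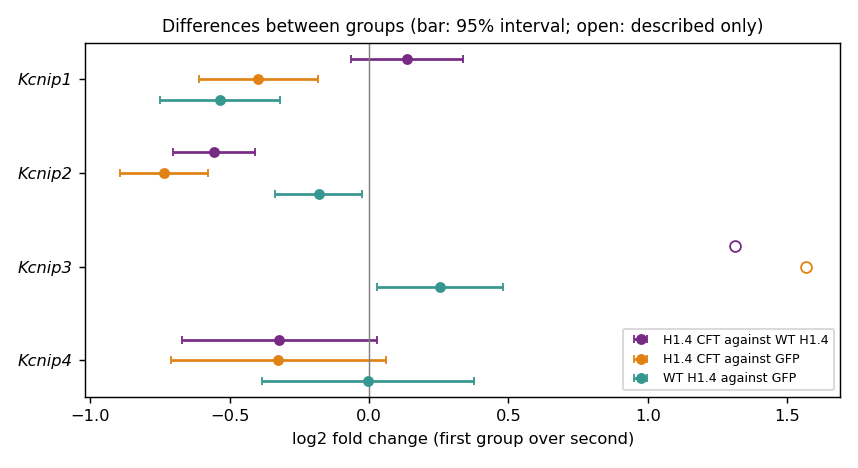
log2 fold change of each Kcnip gene in the 3 comparisons, first named group over second; bars are 95% intervals from edgeR and open circles are the Kcnip3 differences that chose the gene and carry no interval. Kcnip2 lies at -0.56 and -0.74 for H1.4 CFT, Kcnip1 at -0.40 and -0.53 for both H1.4 groups against GFP, and all Kcnip4 intervals cross 0.

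The make-up of the family's reads is given as a description. Kcnip3 took 30.3% to 36.7% of the reads of all 4 genes in H1.4 CFT libraries, 13.1% to 14.3% in WT H1.4 and 9.61% to 10.8% in GFP. Kcnip2 took 37.9% to 41.2% in H1.4 CFT, 58.6% to 61.9% in WT H1.4 and 58.5% to 61.3% in GFP. The summed level of the family was 68.2 ± 4.31 CPM in H1.4 CFT, 67.0 ± 2.81 CPM in WT H1.4 and 76.5 ± 2.41 CPM in GFP (SD, n = 4, 4 and 3). The H1.4 groups overlapped in this sum, at 63.5 to 73.2 CPM in H1.4 CFT and 63.4 to 69.8 CPM in WT H1.4, and both lay below the 74.7 to 79.2 CPM of GFP. Shares are of reads and not corrected for length, so they show how each gene's part differed between libraries and not which gene had more transcripts. As Kcnip3 is part of every share and of the sum, they are descriptions.

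**Figure D3:**
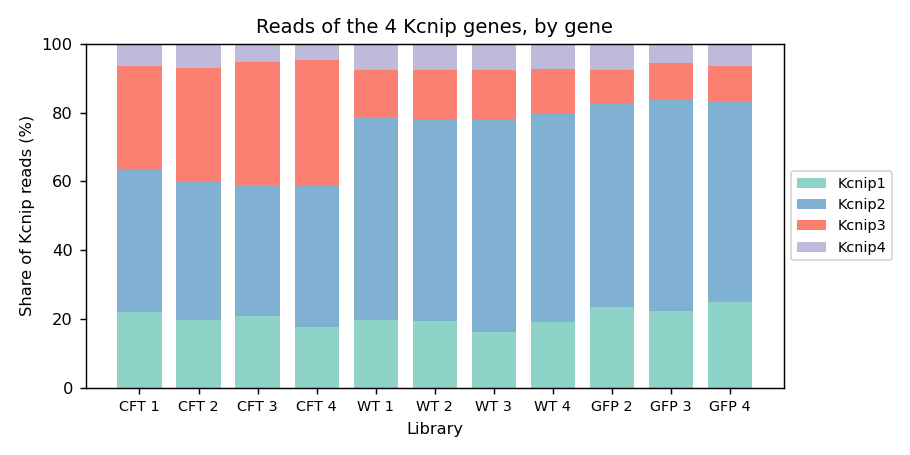
Share of the reads of the 4 Kcnip genes taken by each gene (percent, not corrected for length), in each library. The Kcnip3 share is 30.3% to 36.7% in the H1.4 CFT libraries and 9.61% to 14.3% in all others, and the Kcnip2 share is lowest in H1.4 CFT.

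Kv channel interacting proteins serve Kv4 channels. The list used for the Kv4 channel complex holds the Kcnd pore genes, Dpp6 and Dpp10. It also holds Kcnab and Kcne subunit genes, whose place in Kv4 channels of these cells was not tested, so its counts are not of the complex alone. Of the list's 10 tested genes 4 fell, 1 rose and 5 did not pass in H1.4 CFT relative to WT H1.4 (median log2 fold change -0.23, against 0.018 over all genes tested), where 19.2% of all genes fell and 16.7% rose. In H1.4 CFT against GFP 5 fell, 0 rose and 5 did not pass (median -0.29, against 0.011 over all genes), where 16.2% of all genes fell and 13.3% rose. Medians of the neuronal marker list were lower still, -0.43 against WT H1.4 and -0.34 against GFP. Its part in the falls of this list was not tested. Kcnd2, the main Kv4 pore subunit of hippocampal dendrites, averaged 30.2 ± 3.31 CPM in H1.4 CFT, 39.7 ± 3.09 CPM in WT H1.4 and 43.6 ± 4.04 CPM in GFP. It fell 1.32-fold against WT H1.4 and 1.44-fold against GFP (log2 fold changes of -0.40 and -0.53, SE 0.080 and 0.087, with adjusted p of 0.000708 and 0.000141). The other pore subunit genes did not pass, with log2 fold changes of -0.025 and -0.16 for Kcnd1 and -0.037 and 0.0016 for Kcnd3. Both dipeptidyl-peptidase-like subunits, which join Kv4 channels beside the Kv channel interacting proteins and speed their gating, also fell. Dpp10 averaged 21.9 ± 1.27 CPM in H1.4 CFT, 32.8 ± 2.18 CPM in WT H1.4 and 29.2 ± 1.53 CPM in GFP (log2 fold changes of -0.58 and -0.41, with adjusted p of 4.84e-06 and 0.000498). Dpp6 fell by 0.34 on the log2 scale against WT H1.4 and by 0.26 against GFP (adjusted p of 9.28e-05 and 0.00214). Among the beta subunit genes, Kcnab2 fell in both comparisons (log2 fold changes of -0.22 and -0.32, the first not among libraries numbered 1 and 2) and Kcnab1 fell against GFP (-0.39, adjusted p = 0.00923, but not without GFP 3 or among libraries numbered 1 and 2). Kcne5, a small accessory subunit gene, rose 1.32-fold in H1.4 CFT relative to WT H1.4 (adjusted p = 0.00751, but not among libraries numbered 3 and 4), with 14.4 to 17.4 CPM in H1.4 CFT, 9.43 to 14.4 CPM in WT H1.4 and 17.0 to 17.4 CPM in GFP, so that the H1.4 groups overlapped. It was the only one of 10 to pass in WT H1.4 against GFP, where it fell (log2 fold change -0.51, adjusted p = 0.048), a call lost under RLE scaling, with a non-robust spread and among libraries numbered 3 and 4, and without WT 1, WT 2, WT 4, CFT 3 or any single GFP library.

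Of the relatives of the Kv channel interacting proteins in the neuronal calcium sensor family, 6 of 7 tested genes fell in H1.4 CFT, 0 rose and 1 did not pass relative to WT H1.4 (median log2 fold change -0.49), where 19.2% of all genes fell. Against GFP 4 fell, 0 rose and 3 did not pass (median -0.38), where 16.2% of all genes fell. The neuronal marker list also fell, 7 of 9 genes against WT H1.4 (median -0.43) and 8 against GFP (median -0.34). A fall is therefore not particular to the sensor list, and the part of neuronal content in it was not tested. In WT H1.4 against GFP 0 of 7 passed in edgeR, DESeq2 or limma-voom, and 0 had an unadjusted p under 0.05 (median 0.0064, against -0.0011 over all genes). Hpcal1, a hippocalcin-like sensor, averaged 19.3 ± 1.90 CPM in H1.4 CFT, 35.2 ± 3.29 CPM in WT H1.4 and 32.7 ± 1.08 CPM in GFP. It fell 1.82-fold against WT H1.4 and 1.69-fold against GFP (adjusted p of 2.32e-07 and 3.41e-06). Ncald, neurocalcin delta, fell 1.64-fold and 1.63-fold (87.2 ± 4.19 CPM in H1.4 CFT, 143 ± 11.6 CPM in WT H1.4 and 142 ± 14.2 CPM in GFP, adjusted p of 5.98e-07 and 2.05e-06). Vsnl1, visinin-like protein, had log2 fold changes of -0.49 and -0.58, and Hpca, hippocalcin, of -0.28 and -0.31, where both genes fell in both comparisons, Hpca not among libraries numbered 1 and 2. Ncs1, neuronal calcium sensor, fell against WT H1.4 (-0.23, adjusted p = 0.00219), but not among libraries numbered 1 and 2. It missed the threshold against GFP (-0.14, adjusted p = 0.0732), where it passed with the replicate number as a block (-0.16, adjusted p = 0.0309). Hpcal4 fell against WT H1.4 (82.4 ± 22.8 CPM in H1.4 CFT and 122 ± 5.56 CPM in WT H1.4, adjusted p = 0.0383), and this call was lost without CFT 3, CFT 4, any WT H1.4 library, GFP 2 or GFP 3, without the low-count filter and with only the groups compared. Guca1b, a guanylate cyclase activator of photoreceptors, did not pass and lay in the other direction against WT H1.4 (log2 fold change 1.15, adjusted p = 0.0622), from 10 to 13 counts in H1.4 CFT, 1 to 8 in WT H1.4 and 7 to 8 in GFP. It passed in 4 of the 21 alternatives that tested it. Rcvrn, recoverin, was too low to test, with 4, 9, 16 and 9 counts in CFT 1 to 4, 0, 3, 3 and 6 counts in WT 1 to 4 and 0, 0 and 1 count in GFP 2 to 4.

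**Figure D4:**
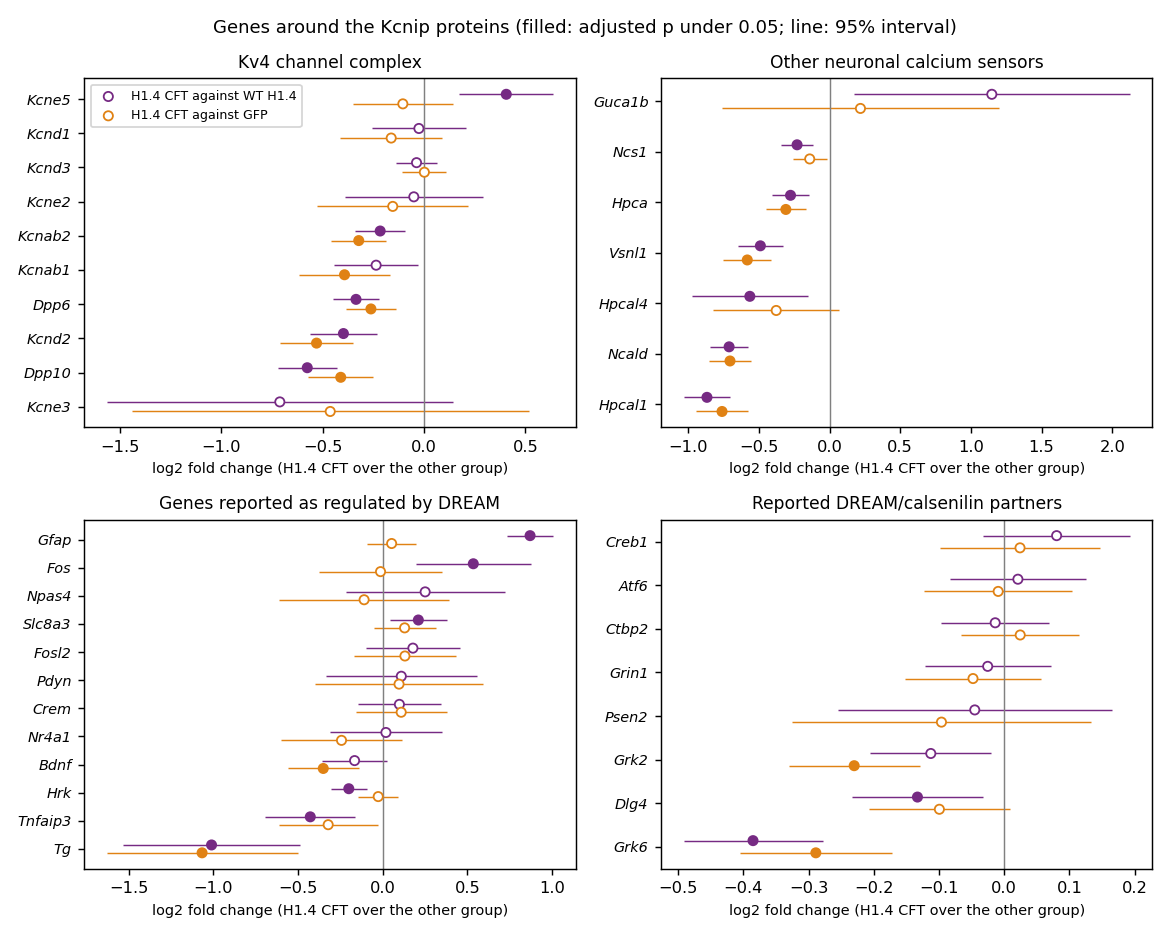
log2 fold change of tested genes of 4 lists (not all partners are drawn) in H1.4 CFT relative to WT H1.4 and against GFP; filled points have an adjusted p under 0.05 in edgeR and lines are 95% intervals. In the calcium sensor list 6 and 4 of 7 genes fell, and in the list of genes reported as regulated by DREAM 3 rose and 3 fell against WT H1.4.

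Of 12 tested genes reported in the literature as regulated by DREAM, 3 rose, 3 fell and 6 did not pass in H1.4 CFT relative to WT H1.4 (median log2 fold change 0.10), where 16.7% of all genes rose and 19.2% fell. Against GFP 0 rose, 2 fell and 10 did not pass (median -0.019), where 13.3% of all genes rose and 16.2% fell. Counts this near the shares over all genes are no result about the list, and the genes are given as single values. Pdyn, the prodynorphin precursor in which the DREAM element was first described, averaged 1.88 ± 0.163 CPM in H1.4 CFT, 1.73 ± 0.230 CPM in WT H1.4 and 1.77 ± 0.214 CPM in GFP. Its log2 fold changes were 0.11 against WT H1.4 (95% interval -0.34 to 0.55, adjusted p = 0.72) and 0.097 against GFP (95% interval -0.40 to 0.59, adjusted p = 0.799), from 20 to 37 counts per library. The genes that rose against WT H1.4 were Gfap, Fos and Slc8a3. Gfap, the astrocyte intermediate filament, rose 1.83-fold (adjusted p = 2.08e-07), but at 557 ± 51.5 CPM in H1.4 CFT, 305 ± 16.6 CPM in WT H1.4 and 537 ± 41.9 CPM in GFP it was the WT H1.4 group that stood apart, and in H1.4 CFT against GFP it did not pass. Set against GFP, WT H1.4 had less Gfap, which fell 1.76-fold (adjusted p = 5.21e-05), the only one of the 12 to pass there. Gfap is also on the astrocyte marker list, whose sums and counts are given above and whose part in these values was not tested. Fos, an immediate early gene, had 4.62 to 8.87 CPM in H1.4 CFT, 4.33 to 4.98 CPM in WT H1.4 and 6.25 to 7.22 CPM in GFP. Its rise against WT H1.4 (log2 fold change 0.54, adjusted p = 0.0148) was lost without CFT 4 and among libraries numbered 1 and 2. Slc8a3, a sodium-calcium exchanger, rose 1.16-fold (adjusted p = 0.0457), a call lost in 11 of 22 alternatives, among them DESeq2 and the omission of CFT 2, CFT 3, CFT 4, WT 2, WT 3, WT 4 or GFP 4.

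The genes of this list that fell against WT H1.4 were Tg, Hrk and Tnfaip3. Tg, thyroglobulin, had 36.7, 35.6, 17.7 and 20.2 CPM in CFT 1 to 4, against 49.5 to 62.5 CPM in WT H1.4 and 55.8 to 60.5 CPM in GFP. It fell 2.02-fold against WT H1.4 and 2.09-fold against GFP (adjusted p of 0.00916 and 0.0121). CFT 3 and CFT 4 were lower than CFT 1 and CFT 2, as for Kcnip4. Hrk, a pro-apoptotic gene of the Bcl-2 family, fell against WT H1.4 (log2 fold change -0.20, adjusted p = 0.00488), at 110 ± 4.94 CPM in H1.4 CFT, 126 ± 6.57 CPM in WT H1.4 and 112 ± 8.51 CPM in GFP. With the replicate block it rose in WT H1.4 against GFP (log2 fold change 0.21, adjusted p = 0.0476, without the block 0.17 and 0.178). Tnfaip3, an inhibitor of NF-kappaB signalling, fell 1.34-fold against WT H1.4 (adjusted p = 0.0125, not without CFT 3 or among libraries numbered 1 and 2). Against GFP it missed the threshold (log2 fold change -0.32, adjusted p = 0.091), and it passed in 4 of 22 alternatives, among them the replicate block (-0.37, adjusted p = 0.0495). Bdnf, the neurotrophin gene, fell against GFP (13.4 ± 1.51 CPM in H1.4 CFT and 17.0 ± 0.904 CPM in GFP, adjusted p = 0.0124, not without GFP 4 or among libraries numbered 1 and 2).

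Among reported partners of DREAM and calsenilin the kinase gene Grk6 fell in H1.4 CFT in both comparisons. Of 10 tested genes 3 fell, 0 rose and 7 did not pass in H1.4 CFT relative to WT H1.4 (median log2 fold change -0.035), where 35.9% of all genes passed and 19.2% fell. Against GFP again 3 fell, 0 rose and 7 did not pass (median -0.072), where 29.5% of all genes passed and 16.2% fell. These counts are near the shares over all genes. Grk6, a kinase reported to phosphorylate DREAM, fell 1.31-fold against WT H1.4 and 1.22-fold against GFP (56.1 ± 1.86 CPM in H1.4 CFT, 73.3 ± 3.76 CPM in WT H1.4 and 68.5 ± 3.41 CPM in GFP, adjusted p of 1.21e-05 and 0.000627). Grk2, the other kinase on the list, fell against GFP (log2 fold change -0.23, adjusted p = 0.00127). Dlg4, the postsynaptic scaffold, fell 1.10-fold against WT H1.4 (adjusted p = 0.036), a call lost with the filter of 5 CPM, among libraries numbered 1 and 2, and without CFT 3, CFT 4, WT 1, WT 2 or WT 4. Between WT H1.4 and GFP 0 of 10 passed in edgeR, DESeq2 or limma-voom, and 2 had an unadjusted p under 0.05 (median -0.019).

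The genes whose profile over the 11 libraries was nearest to each member were found by the root mean square difference of log2 CPM, each gene centred on its own mean, among 12428 tested genes with a mean of at least 2 CPM and a gene symbol other than a locus number. This describes likeness of profile only, and libraries, depth and groups are shared by all genes compared. Nearest to Kcnip3 were Eno3, Zcwpw1, Styxl1 and Slc26a8, at 0.081, 0.14, 0.16 and 0.18 on the log2 scale, where the median gene differed by 0.70. The Kcnip3 profile itself had an SD of 0.72 and holds the H1.4 CFT values that chose the gene. Its distances and neighbours follow from that choice and are a description. Eno3, an enolase, averaged 10.6 CPM in H1.4 CFT, 4.32 CPM in WT H1.4 and 3.38 CPM in GFP. Nearest to Kcnip2 were Slc8a2, Ube2ql1, Gpr162 and Slc24a2 at 0.074 to 0.078 (median gene 0.35). Slc8a2 and Slc24a2 encode exchangers that move calcium out of the cell, and Slc8a2 averaged 83.3 CPM in H1.4 CFT, 117 CPM in WT H1.4 and 135 CPM in GFP. Nearest to Kcnip1 were Tnr, Glul, Ivd and Cntnap3 at 0.11 to 0.12 (median gene 0.28). Glul, the glutamine synthetase typical of astrocytes, averaged 399 CPM in H1.4 CFT, 376 CPM in WT H1.4 and 483 CPM in GFP. Nearest to Kcnip4 were Agfg2, Ablim1, Lsm11 and Akap6 at 0.074 to 0.087 (median gene 0.29).

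**Figure D5:**
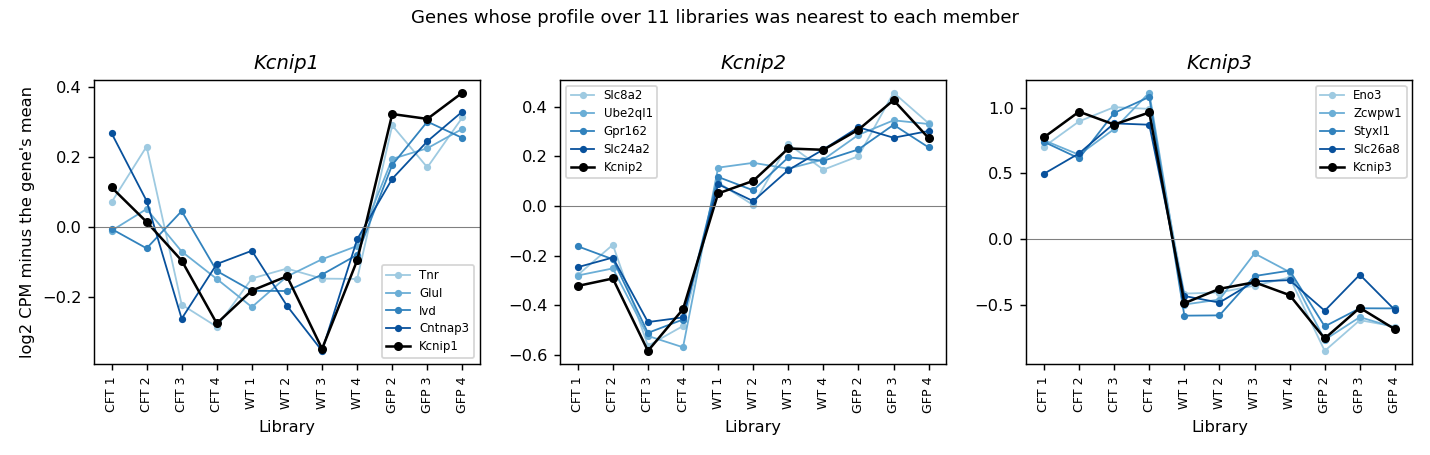
log2 CPM of Kcnip1, Kcnip2 and Kcnip3 (black) and of the 4 genes with the nearest profile (blue) in each of 11 libraries, each gene centred on its own mean. Kcnip3 and Eno3 have a root mean square difference of 0.081 and are high in all H1.4 CFT libraries, and the Kcnip2 set is low there.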

How the data were processed

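Polyadenylated RNA of 11 libraries was analysed from the deposited raw counts per gene symbol, which carry no normalization. Per the submitters' processing notes, STAR 2.7.2b, HTSeq 0.10.0 and the mRatBN7.2 build were used by the authors. The annotation release and strand setting are not given in the sources used here. The 5 summary entries of each file, 53.1% to 54.1% of its total, were left out. Counts were fitted in R 4.3.3 with edgeR 4.0.16: 1 fit of all libraries, TMM scaling, filterByExpr by group (minimum count 10, minimum total 15), group as the only term, robust quasi-likelihood test, Benjamini-Hochberg adjustment over 17294 genes, threshold 0.05. The common biological coefficient of variation was 7.02%. Per-library CPM used the TMM library sizes, and log2 CPM a prior count of 2.

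The members, the lists, the tests and the alternatives were chosen with earlier results of these data known. Named genes were the members, up to 4 genes of each list past the threshold per comparison by smallest p, and the 4 nearest profiles of each member. Beyond this rule Kcnd1, Kcnd3, Kcnab1, Hpcal4, Guca1b, Rcvrn, Pdyn, Fos and Slc8a3 were named after their values were seen. So were Gad1, Gad2, Sst, Npy, Snap25, Slc17a7, Myh7, Nppa, P2ry12 and Csf1r. Some genes of the partner list are not reported here by name. Marker lists covered neurons, interneurons, astrocytes, oligodendrocyte lineage, microglia, vascular cells and fibroblasts, and cardiac muscle.

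The labels share replicate numbers between groups. Deviations from the group means correlated between equally numbered libraries at 0.19 to 0.28 for H1.4 CFT and WT H1.4, 0.19 to 0.37 for H1.4 CFT and GFP, and 0.15 to 0.31 for WT H1.4 and GFP, over 14381 tested genes with a mean of at least 2 CPM, locus identifiers included. The numbers were therefore tried as a block among the alternatives, and the main fit does not use them. The best partner carried another number for CFT 1 and CFT 4 among WT H1.4 libraries and for CFT 3 among GFP libraries. The same held for WT 3 and WT 4 among GFP libraries, so a pairing was not established. Correlations between unequally numbered libraries are not given here. Alternatives were RLE scaling, DESeq2 1.42.0, limma-voom (limma 3.58.1), no filter, a requirement of 5 CPM in at least 3 libraries, a replicate block, a term for number pairs (1 and 2 against 3 and 4), each number pair alone, only the groups compared, a non-robust spread, and each library left out. Gene spans were looked up in the RefSeq table of GRCr8, another build than that of the counts, for names and neighbours only. It matched 29477 of 42172 symbols. Intervals of counting error cover counting error only.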

Additional observations from a re-analysis of the deposited data

Results flagged for a closer look

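Of 86 groups of 4 libraries examined over the Kcnip and list genes, 3 held a library far from the other 3 of its group, where chance flags about 1 in 20. Kcne2 stood at 3.64 CPM in WT 3, against 4.85 CPM in the nearest WT H1.4 library. Hpcal1 stood at 40.1 CPM in WT 4, against 33.7 CPM in the nearest. Bdnf stood at 13.7 CPM in WT 2, against 15.2 CPM in the nearest. None of the 4 Kcnip genes was among them in the H1.4 CFT or WT H1.4 libraries.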

How the results depend on the processing

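Of 264 values of the 4 Kcnip genes under 22 alternatives, 252 kept their direction and their side of the threshold, or, for Kcnip3 in H1.4 CFT, moved by less than the spread between replicates. Kcnip2 did so in all of them, at log2 fold changes of -0.73 to -0.38 against WT H1.4 and -0.84 to -0.62 against GFP. Kcnip3 in H1.4 CFT ran from 1.28 to 1.35 and from 1.52 to 1.64. These Kcnip3 values, 22 in each comparison, are counted in both the 264 and the 252. As they chose the gene, their agreement is description only. Kcnip1 fell short of the threshold among libraries numbered 1 and 2, with -0.27 for H1.4 CFT and -0.49 for WT H1.4 against GFP. With 1 library left out the value for WT H1.4 ran from -0.57 to -0.48 (adjusted p from 0.00547 to 0.122). Kcnip4 passed for H1.4 CFT relative to WT H1.4 among libraries numbered 3 and 4 (-0.68), and ran from -0.46 to -0.20 with 1 library left out. In WT H1.4 against GFP, where it was near 0, its sign turned to 0.0014 with limma-voom, 0.00046 without the filter and 0.15 among libraries numbered 3 and 4, and it ran from -0.073 to 0.12 with 1 library left out. The 5098 genes past the threshold in H1.4 CFT against GFP became 3331 among libraries numbered 1 and 2. The 163 genes in WT H1.4 against GFP became 268 with DESeq2, 462 without the filter, 404 with the number-pair term, 1596 among libraries numbered 3 and 4, 348 with only the groups compared, and 44 (without GFP 3) to 306 (without GFP 2) with 1 library left out. With the replicate number as a block this count was 248, and the block changed no call of a Kcnip gene and no call of a listed gene other than those of Ncs1, Tnfaip3 and Hrk. Of 528 counts of list genes by comparison and direction under these alternatives, 500 stayed within 1.5 times, 15 went up and 13 went down further. The causes were not tested. Kcnip4 had 53 to 94 counts per library, with a mean counting error of 11.9% in H1.4 CFT and 12.1% in GFP.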
